A study of Mus musculus with 15 samples.

Results

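Cytosolic ribosomal proteins build the small and the large subunit of the ribosome that translates nuclear-encoded mRNA. Their genes are transcribed at high rates in growing cells, and most of their mRNAs begin with a tract of pyrimidines, the TOP motif, through which mTOR signalling and LARP1 control their translation. MYC is known for raising transcription of ribosome genes, and embryonic stem cells, which divide fast, make much ribosomal protein mRNA.

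The genes described are those whose symbol is Rpl or Rps with a number and at most a suffix a, l, x or l1, or is Rpsa, Rplp0, Rplp1 or Rplp2, and whose mean estimated count over all 15 libraries was at least 100. Of 37310 rows in the count table, 82 matched by symbol and 80 passed the mean, 31 of the small and 49 of the large subunit. Rpl29 was the lowest gene inside, with a mean of 135.5 counts, and Rps27 (55.3) and the muscle paralog Rpl3l (8.07) fell outside. All 80 were tested in every comparison.

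RNA was measured in J1 mouse embryonic stem cells grown in serum with LIF, in 3 libraries for each of 5 groups. The groups were Taf5l-KO and Taf6l-KO with the wild type they share (WT-Taf), and cMyc-KO with its own wild type (WT-Myc). The proteins TAF5L and TAF6L both belong to SAGA, a coactivator complex. Nothing in the labels says that replicates came from separate cultures, so p-values reflect only how these libraries vary, which can be technical variation. The 3 cMyc-KO libraries carry a common code in their descriptions, and whether any knockout rests on a single clone is not stated. Total estimated counts ranged from 14935631 to 27650813 per library. Taf5l was 42.5 ± 0.68 CPM (library-scaled counts by the TMM method; SD, n = 3) in Taf5l-KO and 86.0 ± 1.89 CPM in WT-Taf, and Taf6l was 6.59 ± 0.56 CPM in Taf6l-KO, against 26.1 ± 0.85 CPM in WT-Taf. Myc was 29.2 ± 1.60 CPM in cMyc-KO and 66.8 ± 2.08 CPM in WT-Myc. Each targeted gene was lower in its knockout and still measurable. Myc was also lower in Taf5l-KO (-0.69 on the log2 scale) and Taf6l-KO (-0.83). Its relative Mycn was higher in Taf5l-KO (0.37) and Taf6l-KO (0.35). Mycn averaged 150 CPM in Taf5l-KO, 148 CPM in Taf6l-KO and 117 CPM in WT-Taf. All 10 stem cell markers listed were above 1 CPM in every group, and the summed level of 8 fibroblast markers was at most 9.54 CPM in any library. Stem cell markers summed to 4695 to 4808 CPM in Taf5l-KO, 4641 to 4733 CPM in Taf6l-KO and 5321 to 5414 CPM in WT-Taf, and to 7243 to 7549 CPM in cMyc-KO and 6655 to 6846 CPM in WT-Myc. Primitive endoderm markers (6 genes) summed to 40.8 to 45.3 CPM in Taf5l-KO, 39.96 to 41.7 CPM in Taf6l-KO and 23.3 to 28.7 CPM in WT-Taf, and to 58.2 to 62.8 CPM in cMyc-KO and 69.3 to 72.6 CPM in WT-Myc. The 5 trophectoderm markers in the table summed to 21.7 to 24.4 CPM in Taf5l-KO, 23.4 to 26.1 CPM in Taf6l-KO and 20.1 to 21.5 CPM in WT-Taf, and to 31.1 to 34.9 CPM in cMyc-KO and 18.3 to 20.2 CPM in WT-Myc. The 4 neuroectoderm markers summed to 9.92 to 13.9 CPM in Taf5l-KO, 12.03 to 13.9 CPM in Taf6l-KO and 6.04 to 8.05 CPM in WT-Taf, and to 14.4 to 16.9 CPM in cMyc-KO and 19.1 to 19.7 CPM in WT-Myc. For these 4 lists no knockout overlapped its wild type, and the part of these marker differences in the results was not tested. The sums do not give the direction of each marker. Gata6, of the primitive endoderm list, was lower in Taf5l-KO (-2.20) and Taf6l-KO (-2.21), at under 1 CPM in every group. In that list 2 genes averaged at least 1 CPM in each Taf knockout and 3 in WT-Taf. Of the stem cell list, Nanog was lower in Taf5l-KO (-0.27) and Sox2 higher (0.16). Small non-coding RNAs held 1.54% to 2.53% of counts in the Taf libraries and at most 0.0568% in the Myc libraries, while the labels give all libraries the same protocol. Levels are compared within an experiment only.

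Many ribosomal protein genes have processed pseudogenes, intronless copies of the mRNA elsewhere in the genome, and reads cannot always be told apart between a gene and its copies. By name or by sequence (at least 85% identity over at least 50% of the copy), 755 rows of the table were copies of 75 of the 80 genes. For 25 genes the copies held more counts than the gene itself. The coding sequence of Rps6, the small subunit protein that S6 kinase phosphorylates, is shown as an example. All 747 coding bases of Rps6 (chromosome 4) stand unchanged in the copy Gm13654 (chromosome 2), and the row of Rps6 held 6.27% of the counts of the family. The first 30 coding bases are the same in both.
Rps6 and Gm13654: atgaagctgaacatctccttccccgccacc
Rps3a (chromosome 3), a protein of the small subunit, and its copy Gm10119 (chromosome 14) differ at 4 of 792 coding bases, and the row of Rps3a held 0.641% of its family. Bases 201 to 230 of the coding sequence hold 1 of these differences, T216C, counted from the first base of the start codon and shown in capitals.
Rps3a: tgaagtgagccttgcTgatctacagaatga
Gm10119: tgaagtgagccttgcCgatctacagaatga
Rps27a, a fusion of ubiquitin with a small subunit protein (chromosome 11), differs from Gm8430 (chromosome 6) at 1 of 468 coding bases, A71G, shown within bases 56 to 85.
Rps27a: cctcggacactatagAaaatgtaaaggcca
Gm8430: cctcggacactatagGaaatgtaaaggcca
The sequences come from GENCODE M21 transcripts, whose assembly, GRCm38, is not the mm9 build named in the submitters' processing notes, so positions printed beside sequences are not positions in the files' build. Each result below is therefore given for the gene's own row and, where it matters, with the copies added. A level set between genes was not attempted: the deposited FPKM of Rpl13a imply a length of only 14 to 25 bases, that of Rpl4 a length of 1082 to 1238 bases, and 27 of the 80 genes have an implied length under 100 bases in every library.

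Together the 80 genes held 3.597%, 3.56% and 3.39% of all counts in the Taf5l-KO libraries, 3.51%, 3.58% and 3.51% in Taf6l-KO, against 3.75%, 3.65% and 3.59% in WT-Taf. They held 4.88%, 4.803% and 4.16% in cMyc-KO and 4.38%, 4.21% and 4.77% in WT-Myc. Every Taf6l-KO library lay below every WT-Taf library by this share, the Taf5l-KO libraries overlapped WT-Taf, and the Myc groups overlapped. Of protein-coding counts alone, the 80 genes held 4.55% ± 0.207 in Taf5l-KO, 4.38% ± 0.0678 in Taf6l-KO and 4.597% ± 0.113 in WT-Taf, so Taf5l-KO averaged above Taf6l-KO by this share and below it by the share of all counts, while every Taf6l-KO library again lay below every WT-Taf library. With the copies added the share was 5.07% ± 0.193 in Taf5l-KO, 5.12% ± 0.0693 in Taf6l-KO and 5.34% ± 0.111 in WT-Taf. In the Myc experiment the share with copies was 6.89% ± 0.548 in cMyc-KO and 6.65% ± 0.403 in WT-Myc (SD, n = 3 each). cMyc-KO replicate 3 had the lowest share of the Myc libraries. In such bulk samples fewer cells of a type and less RNA per cell cannot be told apart.

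**Figure D1:**
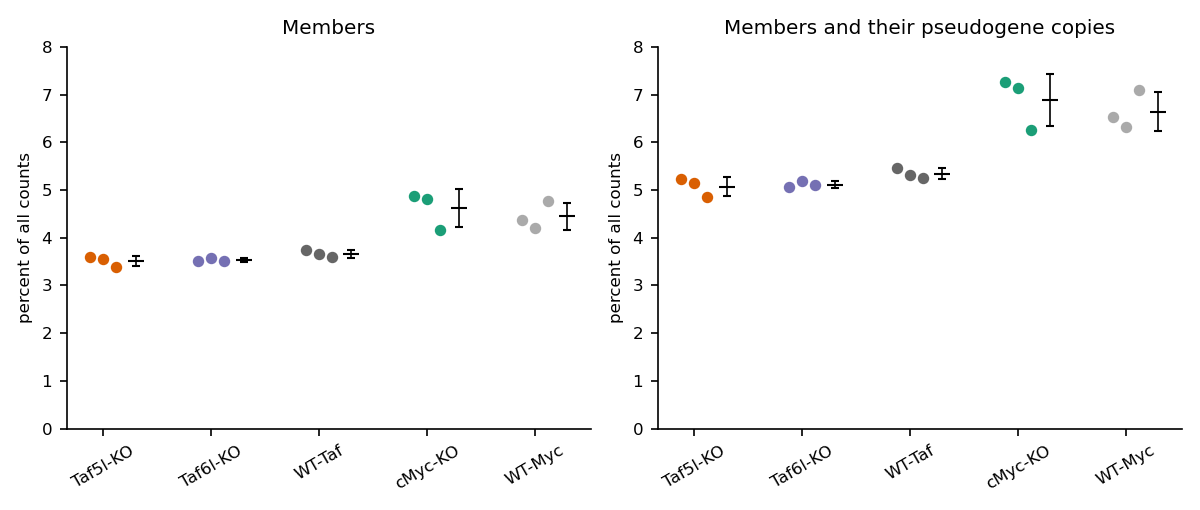
Percent of all estimated counts held by the 80 genes (left) and by the genes with their pseudogene copies (right), for each library (points) with the mean and SD (bar). The Taf5l-KO, Taf6l-KO and WT-Taf libraries lie between 3.39% and 3.75% on the left, and the cMyc-KO and WT-Myc libraries between 4.16% and 4.88%.

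In Taf6l-KO most of the called changes were falls. Of the 80 genes, 36 were lower and 10 higher than in WT-Taf at an adjusted p under 0.05 (edgeR quasi-likelihood test, Benjamini-Hochberg over 15743 genes), where 18.2% of all genes tested were lower and 19.1% higher. The median log2 fold change was -0.12 over the 80 genes and 0.02 over all genes tested. Both subunits took part, with 14 of 31 small subunit genes and 22 of 49 large subunit genes lower. With the copies added, 45 were lower and 5 higher, where 18.4% of all genes were lower and 19.5% higher, and 35 of the 36 lower calls remained. Of these 36 genes, 25 had at least 90% of family counts on their own row, which adding copies can hardly move. The count of falls depends on scaling: with library totals in place of TMM, which moved the median of all genes to 0.09, 24 were lower and 16 higher and the median of the 80 was -0.05.

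In Taf5l-KO, 16 genes were higher and 15 lower than in WT-Taf, shares close to the 17.4% higher and 15.9% lower among all genes tested, and the median was -0.01. Calls differed by the share of counts on copies. Among the 42 genes whose own row held at least 90% of family counts, 6 were higher and 13 lower. Among the 13 genes with 50% to 90%, 3 were higher and 0 lower, and among the 25 with under 50%, 7 were higher and 2 lower. With copies added the calls were 9 higher and 16 lower, where 17.5% of all genes were higher and 16% lower. Only 6 of the 16 higher calls were made both ways, against 13 of the 15 lower calls. Adding copies can hardly move a gene with at least 90% of counts on its own row. The contrast is therefore not read as lower calls being firmer. Without Taf5l-KO replicate 3, which had the lowest share of counts on these genes in the Taf experiment, 4 were lower. Without WT-Taf replicate 1, 2 or 3 there were 6, 9 or 8 lower. Calls among all genes without these libraries are not given for comparison. Rps14, of the small subunit, was among the larger falls (-0.18), with 728, 737 and 688 CPM in Taf5l-KO and 891, 786 and 767 CPM in WT-Taf.

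In cMyc-KO few of the genes were called. There were 10 higher and 1 lower than in WT-Myc, where 15.2% of the 14563 genes tested were higher and 19.5% lower, and the median was 0.02. The median standard error of these genes was 0.0805 on the log2 scale in this comparison and 0.049 in both Taf comparisons. A change of the size seen in Taf6l-KO would therefore pass less easily. In artificial counts, 1 of 51 changes of 1.2-fold was called in this comparison, among genes averaging at least 100 counts. Few calls thus do not show that such changes were absent. With copies added the calls were 6 higher and 1 lower, where 16.4% of all genes were higher and 19.1% lower. The count of rises depended on single libraries. Without cMyc-KO replicate 3, 24 genes were higher and 2 lower, and without WT-Myc replicate 2 only 4 were higher. The share of all genes called without the same library is not given. Nothing particular to the ribosomal protein genes is therefore read from these shifts.

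**Figure D2:**
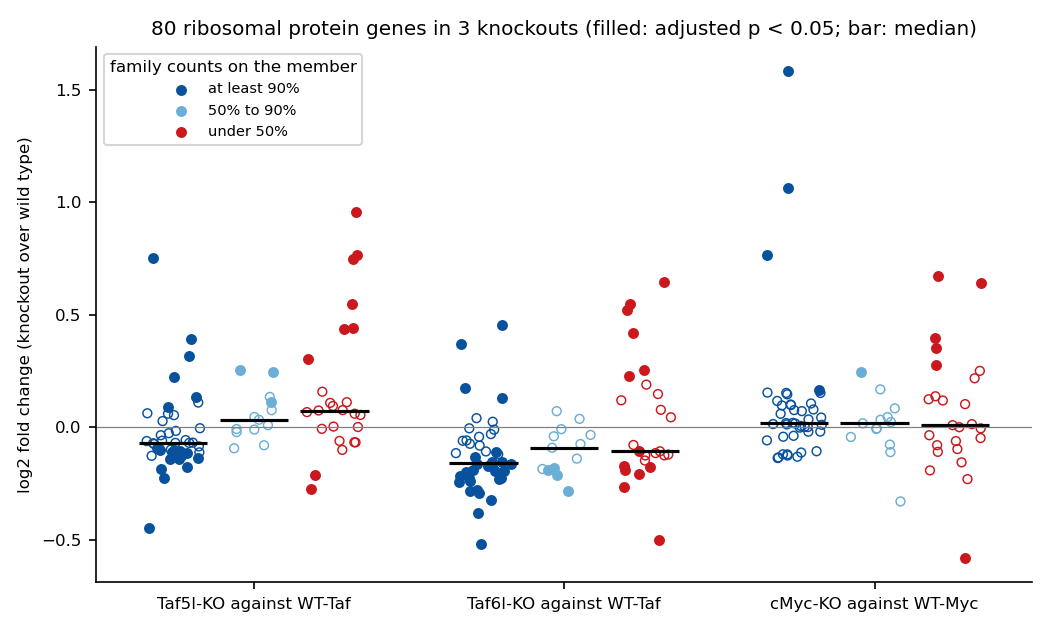
log2 fold change (knockout over wild type, edgeR) of each of the 80 genes in Taf5l-KO, Taf6l-KO and cMyc-KO, coloured by the percent of family counts on the gene's own row, with a bar at the median of each class and genes at an adjusted p under 0.05 filled. In Taf6l-KO 36 genes are lower and 10 higher, and in cMyc-KO 10 are higher and 1 lower.

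Several of the largest rises in the Taf knockouts were on rows with few counts of their family. Rps6 had 126, 156 and 141 CPM in Taf5l-KO, 118, 110 and 114 CPM in Taf6l-KO, against 65.9, 81.4 and 71.1 CPM in WT-Taf, so every knockout library lay above every WT-Taf library. Its log2 fold change was 0.96 in Taf5l-KO (SE 0.075, adjusted p = 3.49e-07, edgeR) and 0.65 in Taf6l-KO (SE 0.076, adjusted p = 1.27e-05). The copy Gm13654 averaged 853 ± 34.6 CPM in Taf5l-KO, 872 ± 7.48 CPM in Taf6l-KO and 922 ± 29.3 CPM in WT-Taf. With copies added the change of the Rps6 family was 0.00 in Taf5l-KO and -0.01 in Taf6l-KO. Rps12, of the small subunit, had 197, 213 and 187 CPM in Taf5l-KO, 173, 153 and 144 CPM in Taf6l-KO, against 119, 108 and 125 CPM in WT-Taf, log2 fold changes of 0.77 and 0.42, which were 0.04 and -0.06 with copies added. Rps3a changed by 0.75 in Taf5l-KO and 0.55 in Taf6l-KO on its own row, and by -0.09 and -0.13 with copies, the second of which was called lower. Rpl34, of the large subunit, changed by 0.55 in Taf5l-KO on its own row and by -0.08 with copies, and Rpl29 by 0.44 and 0.02. In Taf6l-KO, Rpl27a was called higher on its own row (0.23) and lower with copies (-0.26). Which of gene and copy produced the reads was not tested.

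**Figure D3:**
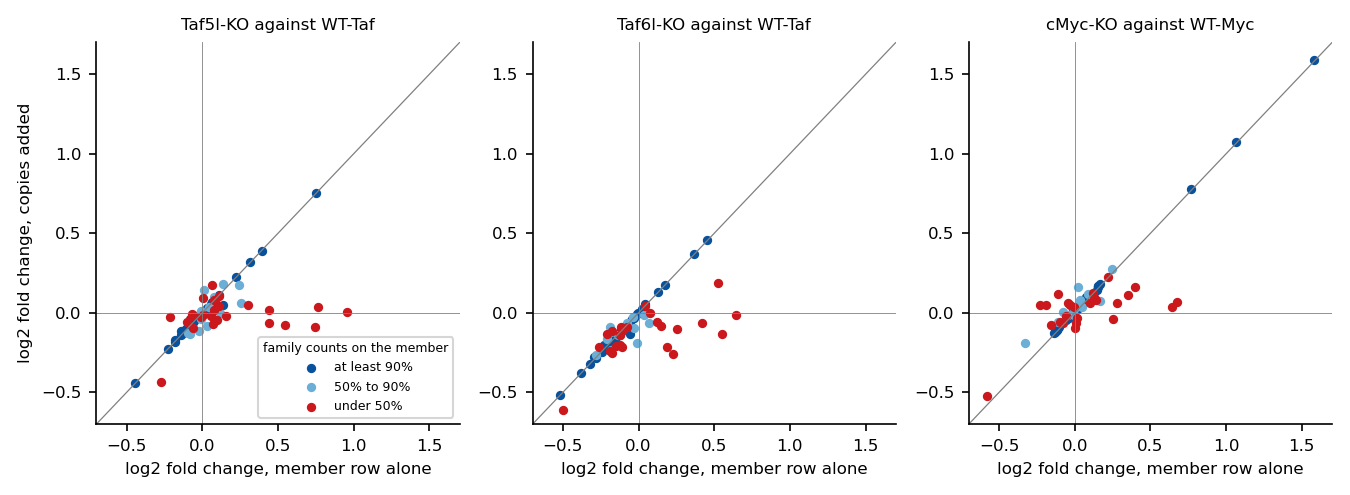
log2 fold change of each gene on its own row (horizontal) and with its pseudogene copies added (vertical) in the 3 knockouts, coloured by the percent of family counts on the gene's own row, with the line of equality. Rps6 stands at 0.96 on its own row and at 0.00 with copies in Taf5l-KO. Genes with at least 90% of counts on their own row lie near the line, since the few counts added can hardly move them.

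Paralogs are genes of their own that encode a close relative of a standard ribosomal protein, and 5 are among the 80 genes. Rpl10l, the retrogene that stands in for X-linked Rpl10 in male germ cells, had 113, 113 and 107 CPM in cMyc-KO, against 36.9, 36.1 and 38.2 CPM in WT-Myc. Every cMyc-KO library was above every WT-Myc library, and the log2 fold change was 1.58 (SE 0.054, adjusted p = 5.28e-06, edgeR), called under all 15 alternative settings of the processing. In the Taf experiment Rpl10l had 146, 156 and 142 CPM in Taf5l-KO, 113, 120 and 109 CPM in Taf6l-KO, against 132, 126 and 122 CPM in WT-Taf, so it was higher in Taf5l-KO (0.22) and lower in Taf6l-KO (-0.15). The fall in Taf6l-KO was lost in 4 of 16 alternatives, with library totals (-0.08, adjusted p = 0.143), with limma-trend on FPKM (-0.16, adjusted p = 0.0657), without Taf6l-KO replicate 3 (-0.12, adjusted p = 0.0804) and without WT-Taf replicate 1 (-0.12, adjusted p = 0.0786). Rpl22l1, the paralog of Rpl22, had 36.5, 33.5 and 42.4 CPM in cMyc-KO and 21.5, 16.8 and 15.8 CPM in WT-Myc; the log2 fold change was 1.06 (SE 0.13, adjusted p = 0.000744, edgeR). It averaged 83.0 ± 5.63 CPM in Taf5l-KO, 86.7 ± 1.13 CPM in Taf6l-KO and 63.2 ± 3.50 CPM in WT-Taf, log2 fold changes of 0.39 and 0.45. Rpl39l, the paralog of Rpl39 known from testis, had 60.02, 66.9 and 53.7 CPM in Taf5l-KO, 45.4, 48.8 and 44.6 CPM in Taf6l-KO, against 37.9, 34.8 and 34.6 CPM in WT-Taf, log2 fold changes of 0.75 and 0.37. It averaged 39.0 ± 1.41 CPM in cMyc-KO and 22.9 ± 1.33 CPM in WT-Myc (0.77). Rpl22l1 and Rpl39l were the genes called in the same direction in all 3 knockouts. Rps27l (-0.10, -0.04 and 0.02 in Taf5l-KO, Taf6l-KO and cMyc-KO) and Rpl7l1 (-0.03, -0.08 and 0.10) passed the test in none of them. All 5 paralogs held at least 98.7% of their family's counts on their own row.

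On its own row no standard form of these proteins was called higher in any knockout. Rpl22 changed by -0.03 in Taf5l-KO, -0.24 in Taf6l-KO and -0.04 in cMyc-KO, and only the Taf6l-KO change passed the test. Rpl39 changed by 0.01, -0.19 and 0.02, and again only Taf6l-KO passed, a call lost with copies added (-0.09, adjusted p = 0.132), while in Taf5l-KO Rpl39 with copies was called higher (0.14). Of the 7 standard forms listed for paralogs, 3 were lower in Taf5l-KO, 6 in Taf6l-KO and 0 in cMyc-KO by edgeR, where 15, 36 and 1 of all 80 were lower. The 7 include standard forms of paralogs that are not among the 80 genes. Rpl10 and Rpl39 are counted again with the X-linked genes, so the counts are not separate results. Rpl10 fell in both Taf knockouts, as described with the X-linked genes. The 40 bases before and the 15 bases after a single RefSeq start site per gene (GRCm38.p6) are shown for these pairs. Runs of at least 6 pyrimidines near the start are in capitals. Any other start site of a gene was not searched.
Rpl10l (chr12:66284387-66284441, minus strand): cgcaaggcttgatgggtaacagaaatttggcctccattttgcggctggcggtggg
Rpl10 (chrX:74270776-74270830, plus strand): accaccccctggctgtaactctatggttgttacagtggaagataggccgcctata
Rpl22l1 (chr3:28805468-28805522, plus strand): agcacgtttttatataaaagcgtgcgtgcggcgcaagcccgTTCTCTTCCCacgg
Rpl22 (chr4:152325686-152325740, plus strand): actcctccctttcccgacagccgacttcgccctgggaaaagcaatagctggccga
Rpl39l (chr16:10170188-10170242, plus strand): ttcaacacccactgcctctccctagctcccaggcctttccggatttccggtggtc
Rpl39 (chrX:37085208-37085262, minus strand): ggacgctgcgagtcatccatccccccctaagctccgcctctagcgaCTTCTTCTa
An unbroken run of at least 6 C or T between 5 bases before and 15 after the start stood in 26 of the 59 genes with a RefSeq promoter entry (44.1%) and in 17.5% of all 27025 promoters. On either strand of the 300-base promoters, CCGGAAG, the core bound by GABP and other ETS factors, was in 23 of 59 genes (39%) and 9.12% of all promoters, the E-box CACGTG bound by MYC in 5 (8.47%) and 7.24%, and AAGATGGC, the YY1 core, in 4 (6.78%) and 2.88%. These matches are descriptions, and no binding was measured.

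**Figure D4:**
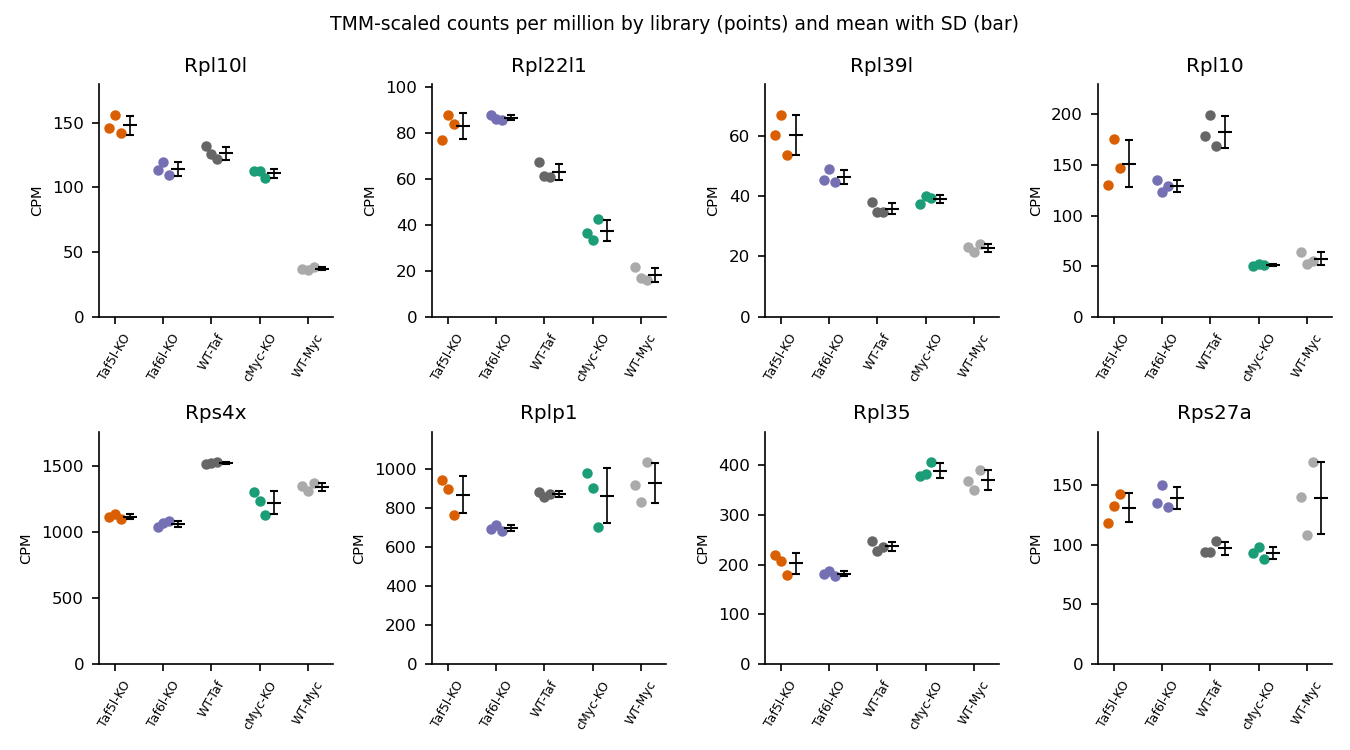
TMM-scaled counts (CPM) of 8 genes in each library (points) with the mean and SD (bar), from Taf5l-KO on the left to WT-Myc on the right. Rpl10l lies between 107 and 113 CPM in cMyc-KO and between 36.1 and 38.2 CPM in WT-Myc, and Rps4x is lower in all Taf5l-KO and Taf6l-KO libraries than in WT-Taf.

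All 4 X-linked genes fell in Taf6l-KO, and 2 of them in Taf5l-KO. Rps4x, of the small subunit, had 1115, 1136 and 1097 CPM in Taf5l-KO, 1036, 1068 and 1079 CPM in Taf6l-KO, against 1516, 1520 and 1529 CPM in WT-Taf. The groups did not overlap, and the log2 fold changes were -0.45 in Taf5l-KO (SE 0.029, adjusted p = 6.31e-08, edgeR) and -0.52 in Taf6l-KO (SE 0.029, adjusted p = 1.07e-08). Both calls held under all 16 alternatives. Rpl10, of the large subunit, had 130, 176 and 147 CPM in Taf5l-KO, 135, 123 and 129 CPM in Taf6l-KO, against 179, 200 and 169 CPM in WT-Taf. Its row held 12.1% of its family, and the change was -0.27 in Taf5l-KO and -0.50 in Taf6l-KO alone, and -0.44 and -0.61 with copies added. The Taf5l-KO libraries of Rpl10 overlapped WT-Taf, and 5 of 16 alternatives lost that call on the gene's own row. Rpl36a (-0.21) and Rpl39 (-0.19) fell in Taf6l-KO. In cMyc-KO the changes of Rps4x (-0.13), Rpl10 (-0.16), Rpl36a (0.05) and Rpl39 (0.02) did not pass the test. Of all 564 tested genes on the X chromosome, 193 were lower and 73 higher in Taf6l-KO, with a median of -0.10, and 177 lower and 64 higher in Taf5l-KO, with a median of -0.13.

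Of the 7 genes on chromosome 11, 4 were higher and 0 lower in Taf6l-KO by edgeR, where 10 of all 80 were higher and 36 lower. Rpl23, of the large subunit, had 634, 636 and 622 CPM in Taf6l-KO and 560, 562 and 554 CPM in WT-Taf; the log2 fold change was 0.17 (SE 0.035, adjusted p = 0.00145, edgeR). Rpl19 (0.13), Rpl27 (0.26) and Rps27a (0.52 on its own row and 0.19 with copies) were also called higher, and Rpl23a (0.04), Rpl26 (-0.01) and Rpl38 (-0.18) were not called. With copies added Rpl27 was -0.10 and not called. Of the 1300 genes tested on chromosome 11, 508 were higher and 84 lower in Taf6l-KO, with a median of 0.16, and the part of the chromosome in the change of these genes was not tested. In Taf5l-KO, Rps27a was higher (0.44, and -0.06 with copies) and Rpl26 lower (-0.18, adjusted p = 0.0448, edgeR), a call lost in 8 of 16 alternatives with adjusted p up to 0.171 and a change of -0.08 without Taf5l-KO replicate 3. On chromosome 14, Rps24 fell in Taf5l-KO (-0.14) and Taf6l-KO (-0.20) and changed by 0.15 in cMyc-KO (adjusted p = 0.0573, edgeR). Rpl15 rose by 0.35 in cMyc-KO on its own row and changed by 0.11 with copies, not called. Of the 483 tested genes on chromosome 14, 237 were lower and 34 higher in cMyc-KO, with a median of -0.32, while Rpl15 and Rps24 stood above 0.

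The P-stalk, the flexible arm of the large subunit that recruits elongation factors, had 3 of its 4 genes lower in Taf6l-KO, where 36 of all 80 were lower. Rplp1 had 691, 712 and 683 CPM in Taf6l-KO and 883, 854 and 872 CPM in WT-Taf; the log2 fold change was -0.32 (SE 0.058, adjusted p = 0.000512, edgeR), and it was also lower than in Taf5l-KO (-0.32). Rplp2 (-0.23) and Rplp0 (-0.11) fell too, and Rpl12, at the base of the stalk, changed by -0.11 without passing (adjusted p = 0.0624, edgeR). The call of Rplp0 was lost with library totals (-0.04). No P-stalk gene passed in Taf5l-KO or cMyc-KO. The largest falls elsewhere in Taf6l-KO included Rpl35 of the large subunit, with 181, 187 and 178 CPM in Taf6l-KO and 247, 228 and 235 CPM in WT-Taf (-0.38, SE 0.057, adjusted p = 0.000123, edgeR), and Rpl37a (-0.29). Rpl35 was lower in Taf5l-KO as well (-0.23). A protein-coding near-copy of Rpl35, Gm2000, had 4370 counts on average and was not added, so Rpl35 is uncertain. Gm2000 was called lower in Taf6l-KO (-0.29) and was not called in Taf5l-KO (-0.05). The 99.7% of family counts placed on the row of Rpl35 leaves Gm2000 out. Rps29, a small subunit protein, fell in Taf6l-KO (-0.28). The Taf knockouts share the WT-Taf libraries. Rpl7a, of the large subunit, changed by -0.11 in Taf5l-KO and -0.17 in Taf6l-KO, Rpl8, of the large subunit, by -0.11 and -0.19, and Rps20, of the small, by -0.11 and -0.28, all called lower. Of 18 genes known to be mutated in Diamond-Blackfan anaemia, a failure of red cell formation, 9 were lower and 1 higher in Taf6l-KO, 5 lower in Taf5l-KO, and 4 higher in cMyc-KO. Over the whole set of 80, Taf6l-KO had 36 lower and 10 higher, with 15 lower in Taf5l-KO and 10 higher in cMyc-KO, and nothing particular to these 18 is read from the counts.

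The direct comparison of the Taf knockouts gave 30 genes lower and 5 higher in Taf6l-KO than in Taf5l-KO, where 10.1% of all genes were lower and 8.55% higher, and a median of -0.11. On their own rows the largest falls were in Rpl29 (-0.57, and -0.22 with copies), Rps21 (-0.43) and Rps29 (-0.42), and the largest rises in Rpl5 (0.26), Rpl27 (0.19) and Rpl27a (0.15). Of these, the changes of Rpl5 (0.07) and Rpl27 (-0.03) were not called with copies added, and Rpl27a was called lower (-0.28). Without Taf5l-KO replicate 3, 47 were lower, and without Taf5l-KO replicate 2, 19 were. Calls among all genes without these libraries are not given, so these shifts are not read as particular to ribosomal protein genes. With library totals 14 were lower and 13 higher, so this split depends on the scaling, which moved the median of all genes to 0.10. Rps21, a small subunit protein, had 197, 186 and 167 CPM in Taf6l-KO and 248, 262 and 233 CPM in Taf5l-KO, a log2 fold change of -0.43 (SE 0.054, adjusted p = 0.00011, edgeR), and it held under all 16 alternatives. Against WT-Taf, where it averaged 199 ± 5.88 CPM, Rps21 was higher in Taf5l-KO (0.32).

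In cMyc-KO, 5 of the 7 rises outside the paralogs were on rows with under 50% of their family's counts. Rpl5, which with Rpl11 and the 5S RNA binds MDM2, had 70.6, 81.3 and 111 CPM in cMyc-KO and 65.0, 53.9 and 46.0 CPM in WT-Myc; the log2 fold change was 0.67 (SE 0.18, adjusted p = 0.0228, edgeR), which was 0.07 with copies added. Rps13 changed by 0.64 and Rpl31 by 0.40 on their own rows, and by 0.04 and 0.16 with copies. Rps27a was the gene called lower, with 93.2, 98.6 and 87.9 CPM in cMyc-KO and 140, 109 and 170 CPM in WT-Myc. Its change was -0.58 (SE 0.14, adjusted p = 0.0169, edgeR) alone and -0.52 with copies, and its copy Gm8430 averaged 426 ± 11.6 CPM in cMyc-KO and 643 ± 40.8 CPM in WT-Myc. The call of Rps27a was lost in 4 of 15 alternatives, with adjusted p up to 0.0788. Rpl23 rose by 0.17, a call lost in 5 of 15 alternatives, with adjusted p up to 0.113.

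The effect of cMyc-KO minus the mean effect of the Taf knockouts was higher in 20 genes and lower in 2, where 18.4% of the 16286 genes tested were higher and 16.9% lower, with a median of 0.14 over the 80 genes and 0.02 over all genes tested. Without cMyc-KO replicate 3, 36 were higher, and the share of all genes called higher without that library is not given for comparison. Rpl10l (1.59), Rpl22l1 (0.69) and Rps4x (0.39) were among the higher genes whose own row held nearly all counts.

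Small nucleolar RNAs (snoRNAs), which guide modification of ribosomal RNA, are cut from introns of these genes. Of the snoRNAs in the count table, 55 lay inside 30 of the 80 genes, and 44 were tested in the Taf experiment. In Taf5l-KO 17 of the 44 were higher and 0 lower, with a median log2 fold change of 0.57, while 6 of the 30 host genes were higher and 5 lower with a median of 0.02. In Taf6l-KO 12 were higher and 0 lower (median 0.30), with 4 hosts higher and 10 lower (median -0.09). Snora52, inside Rplp2, had 8.61, 9.74 and 11.6 CPM in Taf5l-KO, 10.8, 8.72 and 6.75 CPM in Taf6l-KO, against 6.20, 5.77 and 5.01 CPM in WT-Taf. The 114 other snoRNAs tested moved likewise, with 48 higher and 2 lower in Taf5l-KO and 42 higher and 2 lower in Taf6l-KO, with medians of 0.57 and 0.40. Only 6 of the 55 were tested in the Myc experiment, whose libraries held few snoRNA counts. All small non-coding RNAs together held 2.01% to 2.53% of counts in Taf5l-KO, 1.54% to 1.93% in Taf6l-KO and 1.87% to 2.18% in WT-Taf, and the part of this share in the snoRNA changes was not tested.

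**Figure D5:**
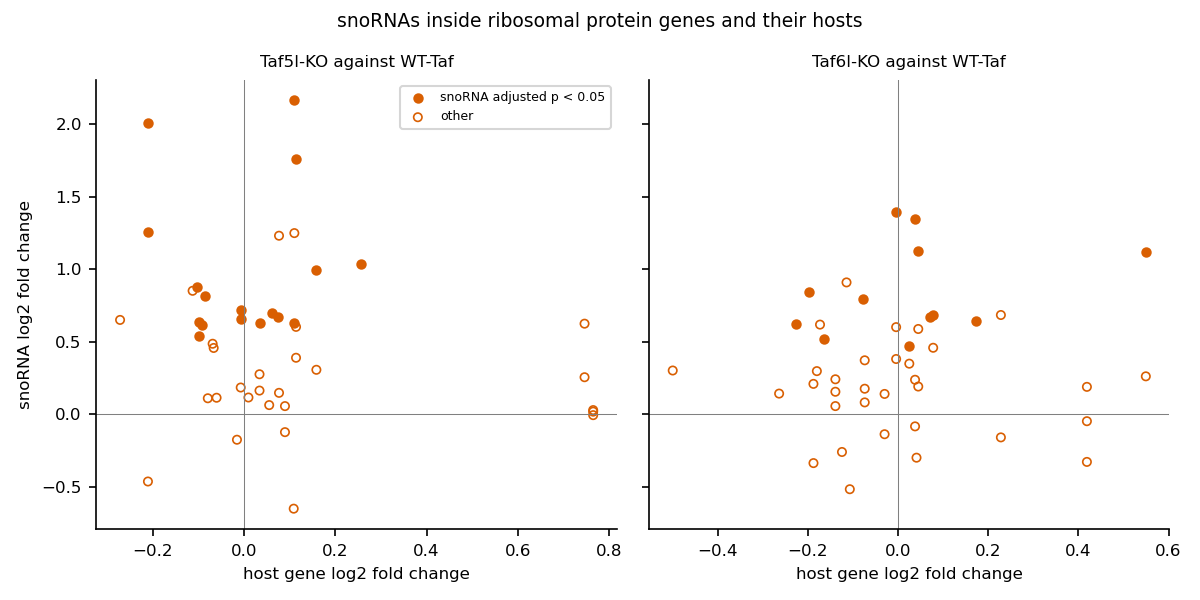
log2 fold change of each snoRNA inside a ribosomal protein gene (vertical) and of its host gene (horizontal) in Taf5l-KO and Taf6l-KO, with snoRNAs at an adjusted p under 0.05 filled. The filled points all lie above 0, on both sides of 0 for the host.

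Other genes of the ribosome pathway moved in part. Of all genes tested, 17.4% were higher and 15.9% lower in Taf5l-KO, 19.1% and 18.2% in Taf6l-KO, and 15.2% and 19.5% in cMyc-KO, and several of the counts below are near these shares. Of 16 other TOP mRNAs, 5 were lower and 2 higher in Taf6l-KO, including Nap1l1, a histone chaperone (-0.24), and Npm1, a nucleolar chaperone (0.22). They gave 3 higher and 1 lower in Taf5l-KO and 2 each way in cMyc-KO. Of 14 RNA polymerase I genes, 7 were lower in Taf5l-KO, 3 lower and 1 higher in Taf6l-KO, and 4 lower in cMyc-KO. Rrn3, its initiation factor, fell by 0.22 in Taf5l-KO and by 0.27 in Taf6l-KO on the log2 scale. Yy1, a factor found at ribosomal protein promoters, was lower in Taf5l-KO (-0.47), Taf6l-KO (-0.54) and cMyc-KO (-0.77). Gabpa, a gene of the factor GABP, went the other way and was higher in Taf5l-KO (0.23), Taf6l-KO (0.11) and cMyc-KO (0.30). Eif4ebp2, the translation repressor that mTOR switches off, was lower in Taf5l-KO (-0.26), Taf6l-KO (-0.58) and cMyc-KO (-0.81). Larp1b, a relative of the TOP-binding protein LARP1, was lower in cMyc-KO (-1.19), at 3.14 CPM against 7.16 CPM in WT-Myc. Larp1 itself was called in no knockout, with changes of 0.04 in Taf5l-KO, 0.03 in Taf6l-KO and 0.02 in cMyc-KO. Of the 11 tested promoter factors that hold Yy1, 2 were higher and 3 lower in Taf5l-KO, 2 and 3 in Taf6l-KO, and 2 and 2 in cMyc-KO. Of the 12 genes of TOP translation control that hold Eif4ebp2 and Larp1b, 3 were higher and 2 lower in each Taf knockout, and 2 and 2 in cMyc-KO. Of 10 chaperones of ribosomal proteins, 2 were higher and 2 lower in Taf5l-KO, 1 and 3 in Taf6l-KO, and 1 and 0 in cMyc-KO. Of 76 mitochondrial ribosomal protein genes tested, 24 were lower and 5 higher in Taf5l-KO, 16 lower and 9 higher in Taf6l-KO, and 3 lower and 11 higher in cMyc-KO.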

How the data were processed

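For the 15 libraries the authors deposited a table of estimated counts per gene, stored as whole numbers, and a table of FPKM. Salmon 0.8.2, DESeq2 1.14.1 and the build mm9 appear in the submitters' processing notes without roles. Which gene annotation was used is not stated. Per the labels' protocols, total RNA was depleted of ribosomal RNA and made into directional libraries. The deposited TPM and normalized tables were left out; 3 header names of the TPM table occur in no other table.

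Groups follow the sample titles. The estimated counts went into edgeR 4.0.16 under R 4.3.3 (TMM, filterByExpr, quasi-likelihood F-test, Benjamini-Hochberg threshold 0.05). The 9 Taf libraries shared a fit, as did the 6 Myc libraries, and all 15 were used for the difference between effects. The SE is the absolute log2 fold change over the square root of F. Chromosomes and biotypes came from GENCODE M21 by Ensembl ID (87.43% of rows matched). Pseudogene copies were found by name and with blastn 2.17.0, and adding their counts to the gene is an alternative chosen after seeing the data. Other settings tried were named pseudogene rows, RLE scaling, library totals, omission of the filter, DESeq2 1.42.0, a replicate block, leaving out each library, limma-trend (limma 3.58.1) on log2(FPKM + 1) with a mean FPKM of at least 0.5, fits with more or fewer groups, and protein-coding counts as the denominator of the share.

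By rule the text names the targeted genes, all paralogs, genes on chromosomes X, 11 and 14, the 5 largest called changes each way per knockout and for the difference of effects (3 each way between the Taf knockouts), genes called alike in every knockout or in opposite directions, and up to 3 genes per other list. A clause of the rule on the genes highest and lowest in FPKM was not used, since FPKM could not be compared between genes. Others were chosen after their values were seen. The members and lists were chosen with earlier results of these data known.

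The test was checked on artificial counts with known changes. The criterion set first, on the share of changes called, was missed for cMyc-KO. It was then replaced by criteria on the size and sign of the estimates and on false calls, which were met. Among genes averaging at least 100 counts, 1 of 51 changes of 1.2-fold was called in cMyc-KO. In Taf5l-KO 24 of 42 such changes were called, and in Taf6l-KO 25 of 48. Small changes in cMyc-KO were thus mostly missed in this check. With 3 libraries a group, precision is limited.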

Additional observations from a re-analysis of the deposited data

Results flagged for a closer look

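For 7 genes the effect of cMyc-KO differed from the mean effect of the Taf knockouts by the interaction term in edgeR over all 15 libraries. They are the genes with the largest called differences, up to 5 each way. On the log2 scale the difference was 1.59 for Rpl10l, 0.80 for Rpl5, 0.69 for Rps13, 0.69 for Rpl22l1 and 0.54 for Rpl31, and it was -1.02 for Rps27a and -0.64 for Rps6. With pseudogene copies added, Rpl10l (1.58), Rpl22l1 (0.69), Rpl31 (0.33) and Rps27a (-0.55) were called again, and Rpl5 (0.09), Rps13 (0.09) and Rps6 (0.13) were not.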

How the results depend on the processing

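Over all alternatives, 2957 values of single genes kept their direction and side of the threshold, 163 lost a call, 131 gained one and 17 turned round. Of 15 alternative values of the share of counts, 13 moved by over 1 SD. With pseudogene copies added the turned values were -0.076 for Rpl34, -0.061 for Rps27a and -0.091 for Rps3a in Taf5l-KO; -0.10 for Rpl27, -0.26 for Rpl27a, -0.21 for Rpl34, -0.0618 for Rps12, -0.13 for Rps3a and -0.012 for Rps6 in Taf6l-KO; -0.032 for Rpl27 and -0.28 for Rpl27a between the Taf knockouts; and 0.13 for Rps6 in the difference of effects. With only named pseudogene rows added they were -0.078 for Rpl34 in Taf5l-KO, -0.22 for Rpl34 and -0.062 for Rps12 in Taf6l-KO, and -0.13 for Rpl27 between the Taf knockouts, where limma-trend gave -0.066 for Rpl27a.

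Counts of called genes moved by over 1.5 times as follows, and the cause was not tested. In Taf5l-KO the 16 higher calls became 9 with copies, and the 15 lower calls became 3 with all libraries in a single fit and 4 with limma-trend. In Taf6l-KO the 10 higher calls became 16 with library totals, 6 with limma-trend and 5 with copies, and the 36 lower calls 19 with all libraries in a single fit and 22 with limma-trend. Between the Taf knockouts the 5 higher calls became 3 with DESeq2, 0 with all libraries in a single fit, 13 with library totals, 0 with limma-trend, 8 without a filter and 3 with copies, and the 30 lower calls 8, 14 and 14 with all libraries in a single fit, library totals and limma-trend. In cMyc-KO the 10 higher calls became 17 with all libraries in a single fit and 6 with copies, and the 1 lower call 2 with DESeq2, 2 with all libraries in a single fit, 0 with limma-trend and 0 with named pseudogene rows. The 2 lower calls in the difference of effects became 1 with copies.

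Leaving out each library gave 4 to 18 lower in Taf5l-KO, 1 to 3 higher and 19 to 47 lower between the Taf knockouts, 4 to 24 higher and 0 to 2 lower in cMyc-KO, and 14 to 36 higher and 2 to 4 lower in the difference of effects. The widest counts in cMyc-KO and in the difference of effects came without cMyc-KO replicate 3. These ranges are not set against the share of all genes called without the same library.

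The replicate numbers did not pair the libraries, with same-number correlations between -0.08 and 0.07 in the Taf experiment and below 0 in the Myc experiment. In the Myc experiment cMyc-KO replicates 1 and 2 correlated by 0.40 and 0.37 with WT-Myc replicate 3. There cMyc-KO replicate 3 correlated by 0.36 with WT-Myc replicate 1. Values were centred within each group first, so these correlations are not independent of each other. For cMyc-KO replicate 3 and WT-Myc replicate 3 the correlation was -0.50. What these libraries of different groups shared was not tested. With the replicate block there were 20 higher and 18 lower in Taf5l-KO, 12 and 43 in Taf6l-KO, 8 and 35 between the Taf knockouts, 5 and 0 in cMyc-KO, and 16 and 2 in the difference of effects.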
